A study of Mus musculus with 24 samples.

Results

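The Ly6 surface antigen genes of mouse chromosome 15 were measured in ER-Hoxb8 cells carrying an empty vector, human WT-ERG or human P199L-ERG, each with and without the HDAC3 inhibitor BRD3308. The 8 genes Ly6a, Ly6c1, Ly6c2, Ly6e, Ly6g, Ly6i, Gm5960 and I830127L07Rik were taken by name from the 53801 features of the count table. They were chosen from the measured counts of these same libraries, because members of the cluster had been seen to move in opposite directions. Every contrast between groups therefore counts as used for the choice, and the members' levels and folds are given as a description, with no p-value.

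ER-Hoxb8 cells are a mouse granulocyte-macrophage progenitor line from C57BL/6 marrow. An estrogen-regulated Hoxb8 oncoprotein keeps them immature, and they differentiate toward neutrophils when estrogen is withdrawn. The line was transduced with lentivirus for the empty backbone (BB), WT-ERG or P199L-ERG, in which leucine replaces a conserved proline of this ETS transcription factor, and stable lines were sorted by GFP. Beta-estradiol was washed out of all cells, which were then kept for 36 hours with 5 µM BRD3308 or with the solvent DMSO. Each of the 6 groups holds 4 libraries from independent experiments, 24 in all. Separate transductions are not described, so a difference between constructs cannot be told apart from a difference between the stable lines.

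Ly6 proteins are small, cysteine-rich proteins of the Ly6/uPAR family that are tethered to the outer cell membrane by a GPI anchor. Ly6a is Sca-1, the antigen used to gate mouse haematopoietic stem and progenitor cells, Ly6c marks inflammatory monocytes, and Ly6g marks mature neutrophils. Ly6e is broadly expressed and is known for roles in viral entry. Several members are induced by interferon in myeloid cells.

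The libraries held between 12510036 and 16280939 counts. Mpo, the granule enzyme of myeloid progenitors, averaged 13184 to 17741 CPM (counts scaled to library size) over the 6 groups, and Cd34 and Elane were also present in every group, as the granulocyte-macrophage progenitor label implies. Markers of T and NK cells summed to 1.81 to 6.27 CPM and those of erythroid cells to 0.572 to 2.57 CPM. The mast cell and basophil list summed to 289 to 554 CPM, with Cpa3 between 24.8 and 221 CPM by group mean and 3 of its 8 genes at 0. The endothelial list summed to 84.0 to 419 CPM, nearly all of it Pecam1, and the B cell list to 29.0 to 93.0 CPM. The part of these transcripts in the Ly6 values was not tested. In both ERG lines, the replicate 4 library from DMSO stood apart in the relation of level to gene length (r = -0.204 and -0.251 across genes with log2 exon length, against -0.0844 to 0.192 in the other 22 libraries). Values of Ly6c2, I830127L07Rik and Ly6e are therefore also given without both, for some comparisons.

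The cluster spans 204076 bases of chromosome 15, chr15:74955051-75159126 on GRCm38. In order along the chromosome it holds Ly6e (ENSMUSG00000022587, plus strand, chr15:74955051-74959905), Ly6i (minus, chr15:74979534-74983430), Ly6a (minus, chr15:74994877-74998031) and Ly6c1 (minus, chr15:75044018-75048830). These are followed by the unprocessed pseudogene Gm5960 (plus, chr15:75071112-75074638), Ly6c2 (ENSMUSG00000022584, minus, chr15:75108158-75111970), I830127L07Rik (ENSMUSG00000102051, minus, chr15:75131377-75135128) and Ly6g (plus, chr15:75155240-75159126). I830127L07Rik is a transcribed unprocessed pseudogene in GENCODE and a protein-coding gene, Ly6a2, in RefSeq. It is described here by its transcript only.

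The members are close copies of each other, which bears on every value below because reads of a shared stretch can be counted for the wrong copy or dropped. How the authors' counting treated such reads is not given in the sources used here. The exon below shows the copies side by side, read from the GRCm38 genome in the direction of each gene, with capitals marking the bases that differ from Ly6c2. It is coding in the first 5 genes listed and lies in a noncoding transcript annotation in Gm5960 and I830127L07Rik. Ly6e is not shown. None of its exons of this length, or a base longer, reached 60% identity, and exons of other lengths were not compared.
Ly6c2 (chr15:75110511-75110627, minus strand, exon 3): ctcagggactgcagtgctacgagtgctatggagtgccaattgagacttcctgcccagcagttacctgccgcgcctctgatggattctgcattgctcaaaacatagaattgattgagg
Ly6c1 (chr15:75047353-75047469, minus strand, exon 3): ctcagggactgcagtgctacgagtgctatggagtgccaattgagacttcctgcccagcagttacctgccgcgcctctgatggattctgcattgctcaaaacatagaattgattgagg
Ly6i (chr15:74981886-74982002, minus strand, exon 2): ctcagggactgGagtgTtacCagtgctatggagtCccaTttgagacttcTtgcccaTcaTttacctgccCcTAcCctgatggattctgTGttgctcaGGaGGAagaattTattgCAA
Ly6a (chr15:74996452-74996568, minus strand, exon 2): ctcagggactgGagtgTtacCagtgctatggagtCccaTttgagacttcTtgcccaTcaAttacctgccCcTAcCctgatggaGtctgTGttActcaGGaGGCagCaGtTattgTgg
Ly6g (chr15:75156694-75156810, plus strand): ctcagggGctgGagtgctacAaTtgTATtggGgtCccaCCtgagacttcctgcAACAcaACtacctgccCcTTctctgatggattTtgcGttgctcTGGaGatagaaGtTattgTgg
Gm5960 (chr15:75072130-75072246, plus strand, exon 2): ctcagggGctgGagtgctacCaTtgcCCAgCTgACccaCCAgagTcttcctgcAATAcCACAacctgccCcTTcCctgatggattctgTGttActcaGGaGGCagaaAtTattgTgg
I830127L07Rik (chr15:75133689-75133805, minus strand, exon 3): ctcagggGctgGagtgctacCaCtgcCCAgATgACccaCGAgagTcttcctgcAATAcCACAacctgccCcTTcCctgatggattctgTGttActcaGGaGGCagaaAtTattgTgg

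Ly6c1 had no capitals, since its 117 bases were identical to those of Ly6c2. Ly6i differed from Ly6c2 at 23 positions, Ly6a at 25, Ly6g at 29, and Gm5960 and I830127L07Rik at 38 each. Gm5960 and I830127L07Rik matched each other at 114 of the 117 positions, and Ly6a and Ly6i at 108. Over the best local alignment of their transcripts, Ly6c1 and Ly6c2 were 97.6% identical, in 822 aligned columns. Gm5960 and I830127L07Rik were 90.8% identical in 411 columns, and Ly6c2 and I830127L07Rik 80.3% in 751. Such a stretch can be shorter than a whole transcript. Ly6c1 shared 324 windows of 60 bases with Ly6c2, which were 18.4% of the windows of Ly6c1 and 11.8% of those of Ly6c2. Ly6a shared 154 windows with Ly6c1, 21 with Ly6i and 10 with I830127L07Rik. Gm5960 shared 25 with I830127L07Rik, 7.2% of its own windows, and Ly6e and Ly6g shared none with any other member. The values of Ly6c1 are uncertain for this reason, since its counts were 0.0736% to 0.106% of those of Ly6c2 by group mean, and the part of shared reads in them was not tested. Nor was it tested for Gm5960 and Ly6a, which had far fewer counts than I830127L07Rik.

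**Figure D1:**
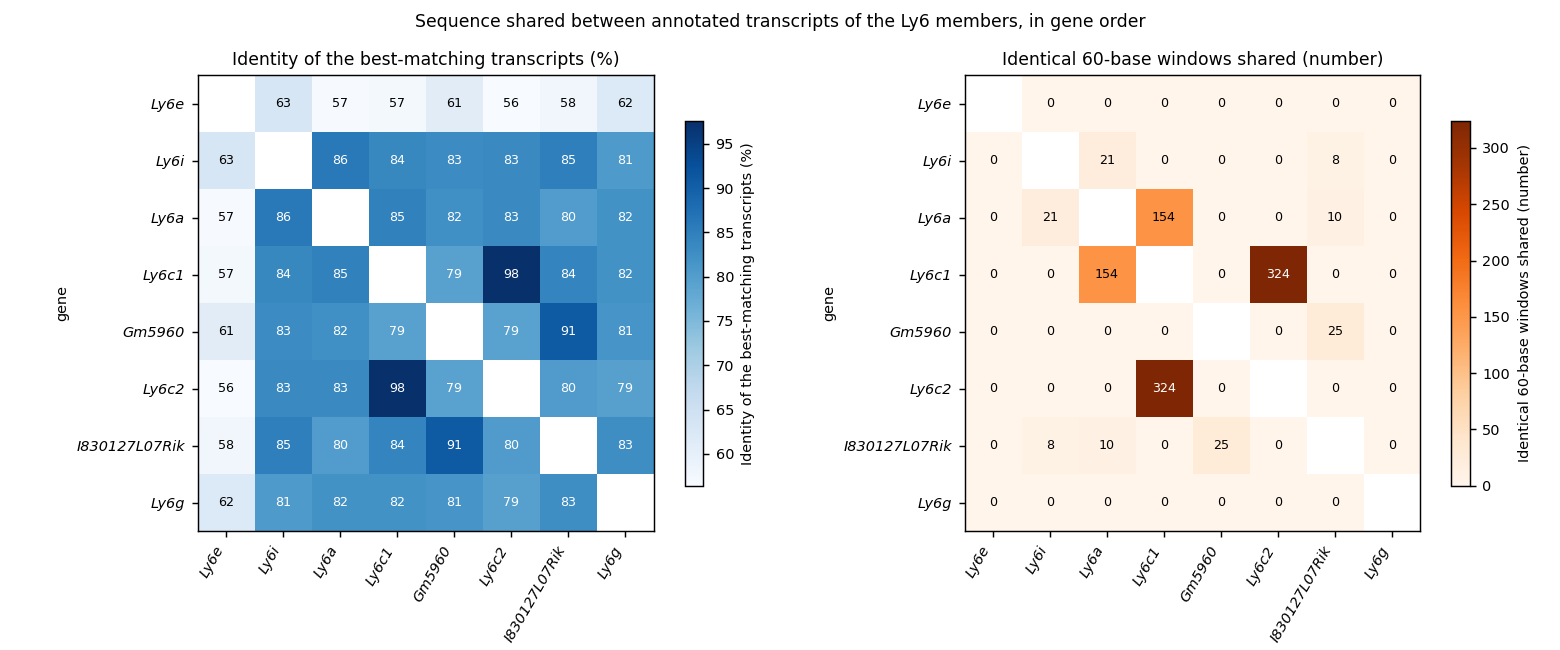
Sequence shared between the 8 Ly6 members. The left heatmap gives the percent identity over the best local alignment of each pair, and the right one the number of exact 60-base windows shared. Ly6c1 and Ly6c2 stand out with 97.6% and 324 windows, while Ly6e and Ly6g share no window with another member.

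Ly6c2, I830127L07Rik and Ly6e carried nearly all of the family's reads. Levels are in CPM after scaling of library sizes by the trimmed mean of M values (TMM), with the mean ± SD of 4 libraries. The 8 members together averaged 2137 CPM in BB cells, 1479 CPM in WT-ERG cells and 1811 CPM in P199L-ERG cells under DMSO. With BRD3308 they averaged 3546, 2683 and 2957 CPM. The order of the groups was the same in both treatments, with BB highest and WT-ERG lowest.

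Ly6c2 encodes one of the pair of near-identical antigens detected by Ly6C antibodies. In DMSO, its level in replicates 1 to 4 was 982, 981, 1099 and 1127 CPM in BB cells (1047 ± 76.6), 358, 379, 406 and 462 CPM in WT-ERG cells (401 ± 45.2), and 549, 586, 647 and 654 CPM in P199L-ERG cells (609 ± 50.2). The 3 groups did not overlap, and every P199L-ERG library lay between the WT-ERG and the BB libraries. With BRD3308, the level was 1720.1, 1765, 1798 and 1878 CPM in BB cells (1790.3 ± 66.5), 1069, 1111, 1160.0 and 1244 CPM in WT-ERG cells (1146 ± 75.3), and 1266, 1308, 1332 and 1357 CPM in P199L-ERG cells (1316 ± 39.0). All 3 treated groups lay above their own DMSO group without overlap, and the order of the constructs was kept.

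I830127L07Rik, the neighbour of Ly6c2, had the same order of groups with wider spacing. In DMSO its level was 342, 351, 402 and 408 CPM in BB cells (376 ± 34.1), 87.1, 98.1, 106 and 120.3 CPM in WT-ERG cells (103 ± 14), and 143, 168, 182 and 222 CPM in P199L-ERG cells (179 ± 32.7). With BRD3308 it was 831, 896, 906 and 951 CPM in BB cells (896 ± 49.5), 464, 501, 539 and 576 CPM in WT-ERG cells (520.0 ± 48.2), and 588, 616, 625 and 644 CPM in P199L-ERG cells (618 ± 23.2). As with Ly6c2, no groups overlapped within a treatment.

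Gm5960, the pseudogene between Ly6c1 and Ly6c2, was far lower but followed the same pattern. Under DMSO it stood at 8.30, 7.87, 7.88 and 8.83 CPM in BB cells, at 3.44, 3.15, 3.47 and 5.18 CPM in WT-ERG cells, and at 3.67, 4.96, 4.52 and 4.99 CPM in P199L-ERG cells. The ERG groups overlapped each other and lay below BB. Under BRD3308 it stood at 31.9, 34.3, 32.4 and 38.9 CPM in BB cells, at 20.9, 20.3, 21.7 and 26.1 CPM in WT-ERG cells, and at 22.9, 23.2, 22.8 and 22.8 CPM in P199L-ERG cells. Every treated library was above every DMSO library of any construct.

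Ly6e, at the proximal end of the cluster and with no shared windows, had the opposite order of constructs. In DMSO it was 692, 687, 701 and 732 CPM in BB cells (703 ± 20.2), 944, 946, 946 and 1043 CPM in WT-ERG cells (969.6 ± 48.8), and 988, 942, 989 and 1146 CPM in P199L-ERG cells (1016 ± 88.9). All 8 ERG libraries lay above the 4 BB libraries, and the ERG groups overlapped. With BRD3308 it was 835, 819, 809 and 811 CPM in BB cells (818 ± 11.6), 977, 972, 991 and 1001 CPM in WT-ERG cells (986 ± 13), and 1019, 978, 999 and 974 CPM in P199L-ERG cells (992 ± 20.8). Only the BB cells were higher with BRD3308 without overlap.

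Ly6a, the Sca-1 gene, was near the limit of detection in DMSO, with 7 to 17 counts per library over the 12 libraries. Its mean level in DMSO was 0.601 ± 0.164 CPM in BB cells, 0.802 ± 0.269 CPM in WT-ERG cells and 0.790 ± 0.196 CPM in P199L-ERG cells, and these groups overlapped. With BRD3308 it was 2.41, 2.42, 1.60 and 2.46 CPM in BB cells, 4.59, 5.49, 6.14 and 5.66 CPM in WT-ERG cells, and 5.37, 2.85, 3.59 and 3.65 CPM in P199L-ERG cells. The order of BB and the ERG lines was thus the reverse of that of Ly6c2 under the drug, and replicate 1 put the P199L-ERG range across that of WT-ERG.

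Ly6g, the neutrophil antigen, was lower still. In DMSO it had 6, 10, 5 and 7 counts in the BB libraries, 2, 3, 3 and 2 counts in the WT-ERG libraries, and 2, 1, 3 and 1 counts in the P199L-ERG libraries. With BRD3308 it had 38, 38, 34 and 46 counts, 30, 31, 26 and 25 counts, and 46, 26, 28 and 34 counts in the same order of constructs. Its counts reached the minimum for testing through the treated libraries, so a test of it could only find it higher there.

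Ly6c1 and Ly6i were present in traces. Ly6c1 had 2 to 18 counts in DMSO libraries and 11 to 26 counts in BRD3308 libraries, with a mean of 0.977, 0.365 and 0.625 CPM in BB, WT-ERG and P199L-ERG cells under DMSO and 1.56, 0.850 and 1.14 CPM under BRD3308. This is the order of Ly6c2, with which it shares sequence. Ly6i had 0 to 13 counts in any library and was not tested. It averaged 0.173, 0.160 and 0.176 CPM under DMSO and 0.328, 0.50 and 0.360 CPM under BRD3308.

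**Figure D2:**
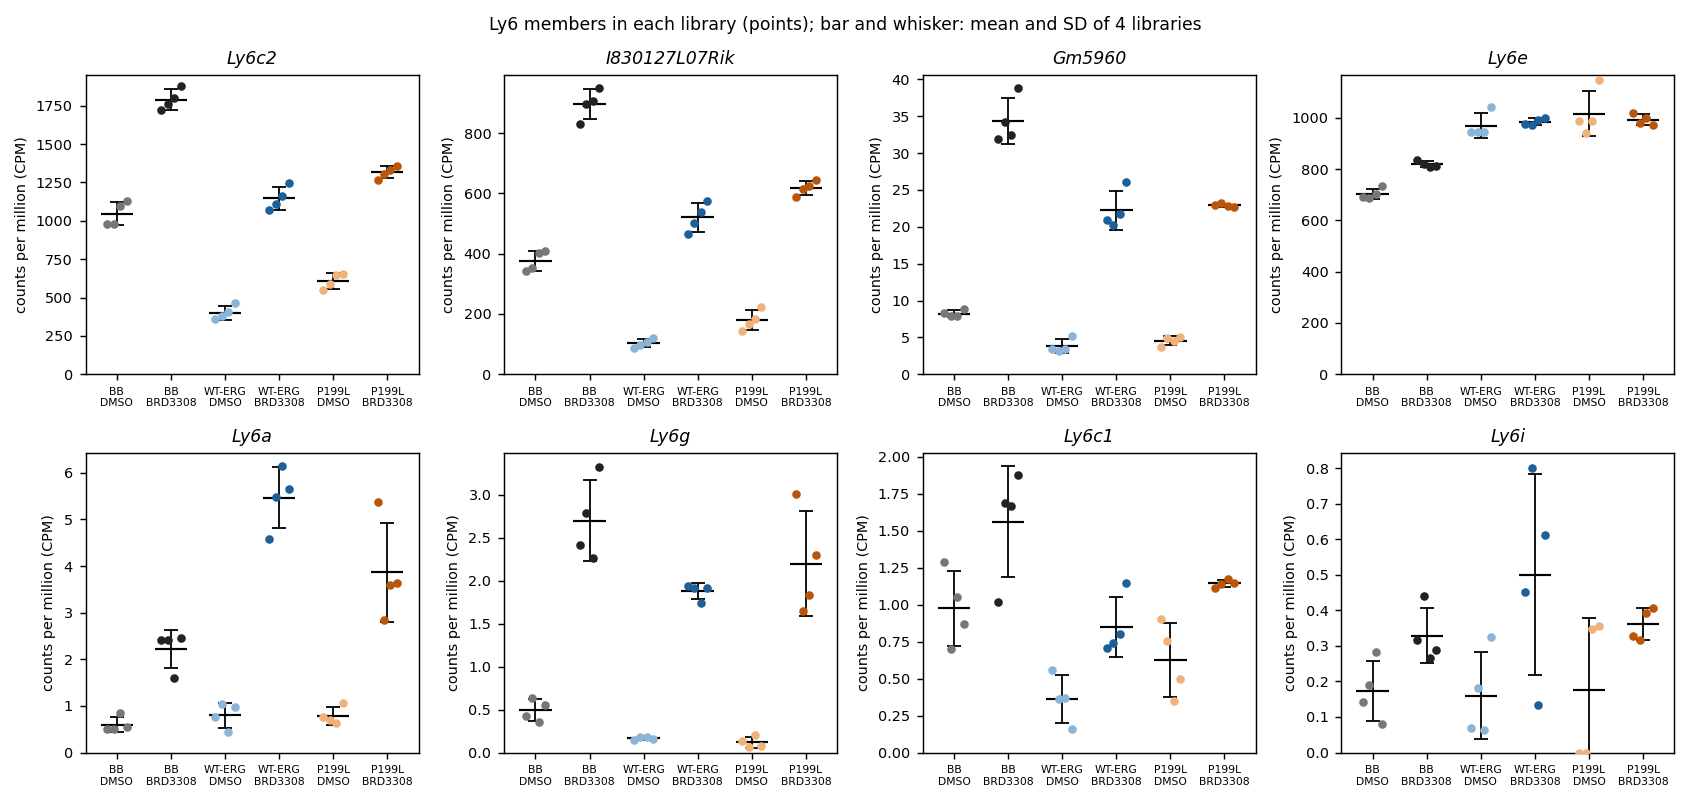
Level of each of the 8 Ly6 members in all 24 libraries, in CPM with 1 panel per gene and its own axis; points are libraries and bars the mean and SD of 4. Ly6c2 and I830127L07Rik are lowest in WT-ERG and highest in BB cells under either treatment, whereas all ERG libraries lie above the BB libraries for Ly6e within each treatment.

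Compared per kilobase of annotated exon (RPKM), I830127L07Rik was the most abundant member in DMSO-treated BB cells. It stood at 471 RPKM against 382 for Ly6c2 and 186 for Ly6e. Ly6c2 was divided by 2740 bases, though its annotated transcripts run from 538 to 2680 bases. Which of them were expressed was not tested, so the orders by RPKM depend on the length used. By mean CPM, Ly6c2 was above I830127L07Rik in every group. In WT-ERG cells under DMSO, Ly6e came first at 256 RPKM, followed by Ly6c2 at 146 and I830127L07Rik at 129. In P199L-ERG cells under DMSO, Ly6e was also first at 269 RPKM, and I830127L07Rik (224 ± 40.9) and Ly6c2 (222 ± 18.3) did not differ beyond their spread. In all 3 groups with BRD3308, I830127L07Rik led at 1123, 652 and 774 RPKM in BB, WT-ERG and P199L-ERG cells. With the length of the longest transcript in place of the union of exons, Ly6e stood at 308 to 446 RPKM, and Ly6c2 and Ly6e changed places in BRD3308-treated WT-ERG cells. For Ly6c2 the 2 lengths, 2680 and 2740 bases, are nearly the same. This check therefore does not cover its shorter transcripts, and its order against I830127L07Rik stays uncertain. Below these 3 genes came Gm5960 in each group, at 9.39 to 84.6 RPKM, and Ly6a, Ly6c1, Ly6g and Ly6i did not exceed 4.54 RPKM.

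The first comparison asked what inhibition of HDAC3 changed within each construct. HDAC3 is a histone deacetylase that acts in the NCoR corepressor complex. All 7 members with enough counts to be tested had positive fold changes in BB and WT-ERG cells, and 6 of 7 in P199L-ERG cells. A gene is called here where edgeR's quasi-likelihood test gave an adjusted p under 0.05 over the 12963 genes tested, and such calls for the members only describe the fit. All 7 were called higher in BB cells, where 24% of tested genes were called higher, and 6 each in WT-ERG and P199L-ERG cells, where 24.7% and 24.4% were. Ly6e was the one not called in the ERG lines. The libraries of 6 members did not overlap in each construct, Ly6c1 being the exception in BB cells and Ly6e in the ERG lines, beside 44.8%, 44.1% and 39.6% of all tested genes. Nothing is read from these counts, since the contrast was used in the choice.

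Folds with BRD3308 were smallest for Ly6e and largest for Ly6g, a gene with few counts. Those of Ly6c2, I830127L07Rik and Gm5960 lay between, and Ly6a had a larger fold than Ly6c2 in each construct. For Ly6c2 the log2 fold change was 0.77 (SE 0.06) in BB cells, 1.51 (SE 0.07) in WT-ERG cells and 1.11 (SE 0.06) in P199L-ERG cells, which is 1.71-fold, 2.86-fold and 2.16-fold. For I830127L07Rik it was 1.25 (SE 0.09), 2.34 (SE 0.10) and 1.79 (SE 0.09), or 2.38-fold, 5.06-fold and 3.46-fold. Gm5960 had the larger folds of the 3 in every construct, at 4.18-fold, 5.90-fold and 5.05-fold. All 3 genes had their smallest fold in BB cells, where their DMSO level was highest, and their largest in WT-ERG cells, where it was lowest.

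Ly6e was 1.16-fold higher with BRD3308 in BB cells (log2 0.22, SE 0.04), and the log2 difference was 0.02 (SE 0.04) in WT-ERG cells and -0.03 (SE 0.04) in P199L-ERG cells. Without the DMSO replicate 4 of both ERG lines, these last values were 0.06 and 0.03, those of Ly6c2 were 1.59 and 1.15, and those of I830127L07Rik were 2.42 and 1.91.

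For the genes with few counts, the ratio of treated to DMSO level is given with an exact 95% interval that covers counting error only. Ly6g was 5.42-fold higher in BB cells (3.61 to 8.42, from 156 against 28 counts), 11.1-fold in WT-ERG cells (5.82 to 23.8, from 112 against 10) and 18.7-fold in P199L-ERG cells (8.85 to 47.5, from 134 against 7). The intervals of WT-ERG and P199L-ERG cells overlapped, and that of BB cells lay below that of P199L-ERG cells. These intervals leave out the spread between libraries. In the fit over libraries, the Ly6g difference of log2 folds was 1.71 (SE 0.49) in P199L-ERG minus BB cells. It was 0.99 (SE 0.46) in WT-ERG minus BB cells, and neither was called. Ly6a was 3.69-fold higher in BB cells (2.51 to 5.56), 6.87-fold in WT-ERG cells (5.05 to 9.54) and 4.91-fold in P199L-ERG cells (3.58 to 6.87). For Ly6c1 the ratio was 1.59 (1.13 to 2.27), 2.25 (1.34 to 3.91) and 1.80 (1.2 to 2.75) in the same order. Ly6i, at 10 against 19, 9 against 30 and 10 against 22 counts, had intervals that excluded 1 in WT-ERG cells only (1.53 to 7.91). In bulk RNA, more cells of a Ly6-bearing type and more RNA per cell cannot be told apart, for these or any other values given.

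The calls of Ly6c1 depended on single libraries. Its log2 fold in BB cells was 0.67 (SE 0.25), and it was no longer called without BB DMSO replicate 2 (0.52) or 4 (0.62), or without BB BRD3308 replicate 2 (0.62), 3 (0.62) or 4 (0.56), with DESeq2 (0.68) or with no filter (0.66). In P199L-ERG cells it was 0.84 (SE 0.28) and lost its call without DMSO replicate 3 (0.65).

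The second comparison asked what WT-ERG and the P199L form changed relative to the empty vector, and it is here that the members went opposite ways. Both ERG comparisons share the BB libraries, so their values are given side by side and not as separate evidence. In DMSO, the Ly6c2 level of WT-ERG cells was 2.61-fold below that of BB cells (log2 -1.38, SE 0.07) and that of P199L-ERG cells 1.72-fold below it (-0.78, SE 0.06). I830127L07Rik was 3.66-fold lower (-1.87, SE 0.10) and 2.10-fold lower (-1.07, SE 0.09). Gm5960 was 2.19-fold and 1.81-fold lower. Against these, Ly6e was 1.38-fold higher in WT-ERG cells (0.46, SE 0.04) and 1.45-fold higher in P199L-ERG cells (0.53, SE 0.04). Over the alternative fits, including that without DMSO replicate 4 of both ERG lines, these log2 values ran from 0.43 to 0.48 and from 0.47 to 0.57. Ly6a did not separate from BB, at log2 0.40 (SE 0.35) and 0.38 (SE 0.35).

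Of the 7 members tested, 1 was called higher and 5 lower in WT-ERG against BB cells under DMSO, where 15.6% of tested genes were called higher and 14.1% lower. In P199L-ERG cells it was 1 higher and 4 lower, beside 15.3% and 12.9%. The one called higher was Ly6e in both. The libraries of 6 members in the first comparison and 5 in the second did not overlap, beside 30.5% and 24.5% of tested genes. Ly6g had negative folds of -1.50 (SE 0.42) and -2.0 (SE 0.46), from at most 3 counts in any DMSO-treated ERG library. When the fit held only the groups compared, Ly6g was not tested in either of these comparisons, nor Ly6c1 in WT-ERG cells.

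With BRD3308 the same directions were smaller for the pair of neighbours. The Ly6c2 level of WT-ERG cells was 1.56-fold below that of BB cells (-0.64, SE 0.06) and that of P199L-ERG cells 1.36-fold below it (-0.44, SE 0.06), and I830127L07Rik was 1.72-fold and 1.45-fold lower (-0.79, SE 0.09 and -0.54, SE 0.09). Ly6e was 1.2-fold and 1.21-fold higher, about the same in both lines. Ly6a now joined it, 2.46-fold higher in WT-ERG cells (1.30, SE 0.18) and 1.74-fold higher in P199L-ERG cells (0.80, SE 0.19).

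Under BRD3308 the calls were 2 higher and 5 lower in WT-ERG cells, where 10.4% of tested genes were called higher and 10.7% lower, and 2 higher and 3 lower in P199L-ERG cells, beside 8.12% and 8.81%. The libraries did not overlap for 6 and 5 members, beside 25.9% and 23% of tested genes. Ly6g was called in WT-ERG cells at -0.52 (SE 0.18). It was not called without BB BRD3308 replicate 2 (-0.51) or 4 (-0.41) or without WT-ERG BRD3308 replicate 1 (-0.54), 2 (-0.53) or 3 (-0.49), nor with DESeq2 (-0.52) or with no filter (-0.51).

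**Figure D3:**
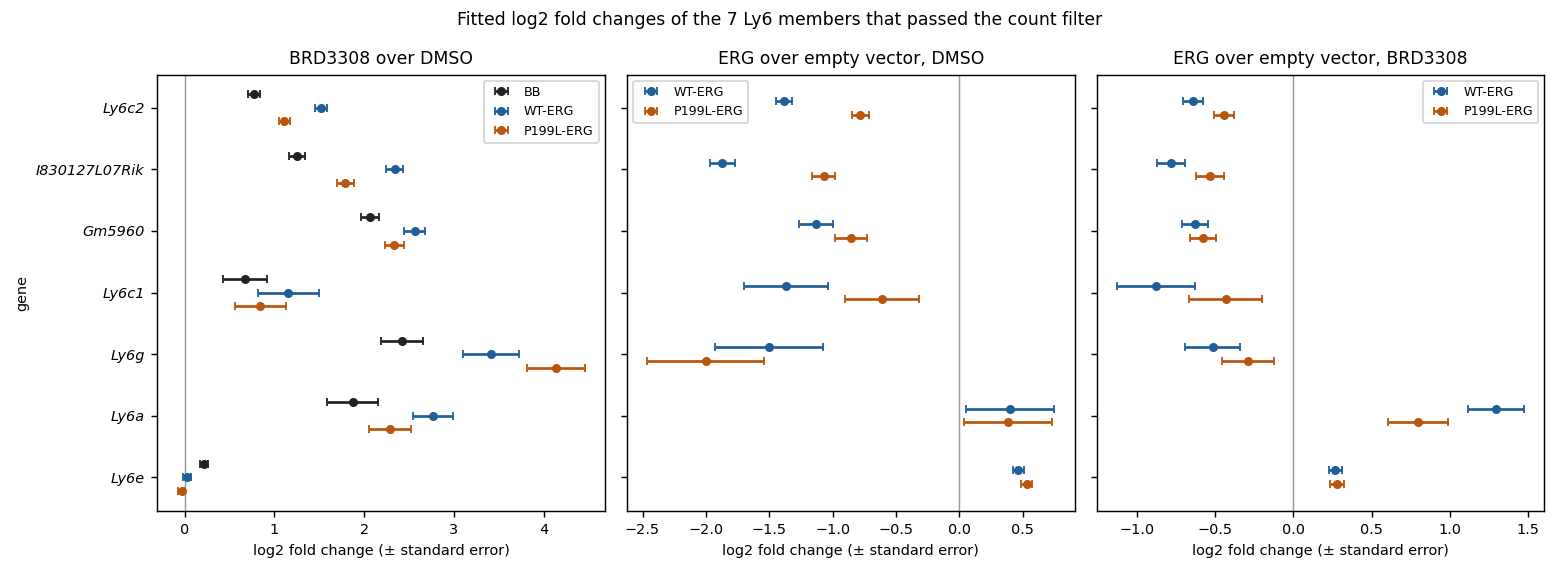
Log2 fold change ± SE of the 7 tested Ly6 members for BRD3308 over DMSO in each construct (left), and for each ERG form over BB under DMSO (middle) and under BRD3308 (right). Ly6c2, I830127L07Rik and Gm5960 lie above 0 on the left and below 0 in the other panels, while Ly6e lies above 0 in both ERG panels and is joined there by Ly6a under BRD3308.

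The third comparison set P199L-ERG against WT-ERG. In DMSO, Ly6c2 was 1.52-fold higher in P199L-ERG cells (log2 0.60, SE 0.06) and I830127L07Rik 1.74-fold higher (0.80, SE 0.10), and the libraries of both genes did not overlap between the lines, which held for 7.63% of tested genes. These 2 members were called, beside 4.67% of all tested genes, with or without the replicate number as a block, which raised the calls over all genes from 606 to 1026. Without replicate 4 of both lines the values were 0.64 and 0.76. Ly6c1 (0.76, SE 0.36), Ly6e (0.07, SE 0.04), Gm5960 (0.27, SE 0.15), Ly6a (-0.02, SE 0.33) and Ly6g (-0.50, SE 0.58) were not called.

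With BRD3308, none of the 7 members was called by edgeR in P199L-ERG against WT-ERG cells, where 3.4% of tested genes were called and 1619 genes had an unadjusted p under 0.05. Ly6c2 (0.20, SE 0.06) and I830127L07Rik (0.25, SE 0.09) kept positive folds and did not overlap between the lines, as 10.5% of tested genes did not, and Ly6a had a fold of -0.50 (SE 0.16). With the replicate block, 732 genes instead of 441 were called, among them these 3 members. Ly6c2 was also called without WT-ERG BRD3308 replicate 4 (0.25), and Ly6a without P199L-ERG BRD3308 replicate 1 (-0.69). DESeq2 called no member either.

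The responses to BRD3308 differed between constructs for a few members. In WT-ERG minus BB cells, the difference of log2 folds was 0.74 (SE 0.09) for Ly6c2 and 1.09 (SE 0.13) for I830127L07Rik, both called, where 1.73% of tested genes were. It was 0.50 (SE 0.16) for Gm5960 and -0.20 (SE 0.06) for Ly6e, neither called. Without WT-ERG DMSO replicate 4, Gm5960 was called too, at 0.66. More members were also called with the replicate block, as given in the last section.

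In P199L-ERG minus BB cells, I830127L07Rik (0.54, SE 0.13) and Ly6e (-0.25, SE 0.06) were called, beside 1.05% of tested genes. Both lay close to the threshold. I830127L07Rik lost its call without any one of 9 libraries, at 0.44 to 0.55, and Ly6e without any one of 5, at -0.25 to -0.24. These were BB DMSO replicates 3 and 4, BB BRD3308 replicates 1 and 2, P199L-ERG DMSO replicates 1, 2 and 3 and P199L-ERG BRD3308 replicates 3 and 4 for the first, and BB DMSO replicates 1, 2 and 3 and P199L-ERG BRD3308 replicates 2 and 4 for the second. Ly6c2 (0.34, SE 0.09) was not called, but it was on leaving out BB BRD3308 replicate 4 or P199L-ERG DMSO replicate 4 (0.37 each), with DESeq2 (0.34), limma-voom (0.34), no filter (0.36) or a fit of only the groups compared (0.34). In that last fit Ly6e lost its call (-0.25).

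In P199L-ERG minus WT-ERG cells, edgeR called no member, and 0.0463% of tested genes, while 764 genes had an unadjusted p under 0.05. Ly6c2 was at -0.40 (SE 0.09) and I830127L07Rik at -0.55 (SE 0.13). DESeq2 called both, at -0.41 and -0.55. The replicate block also called members in this comparison, as given in the last section. Ly6c2 was called without WT-ERG DMSO replicate 4 (-0.48) and I830127L07Rik without P199L-ERG DMSO replicate 1 (-0.64).

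Ly6c2 and I830127L07Rik moved together in direction but not in proportion. Ly6c2 had 2.79 ± 0.06 counts per count of I830127L07Rik in DMSO-treated BB cells (SD, n = 4), 3.91 ± 0.14 in WT-ERG cells and 3.45 ± 0.37 in P199L-ERG cells. With BRD3308 the ratio was 2.0 ± 0.05, 2.21 ± 0.07 and 2.13 ± 0.02. The treated libraries, at 1.97 to 2.30, lay below all DMSO libraries, at 2.73 to 4.11. Ly6c1 counts were 0.0350% to 0.164% of Ly6c2 counts over the 24 libraries, from 2 to 26 counts of Ly6c1, with means of 0.0736% to 0.106% by group.

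**Figure D4:**
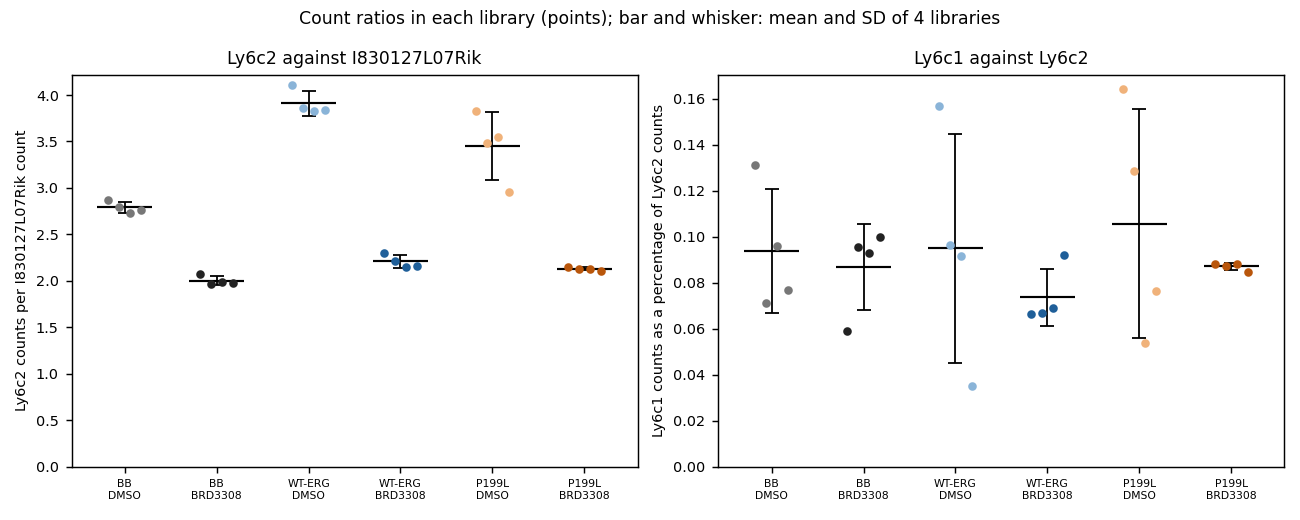
Ratios between members in each of the 24 libraries by group, with the mean. Left, counts of Ly6c2 per count of I830127L07Rik, where every BRD3308 library lies at 1.97 to 2.30 and every DMSO library at 2.73 to 4.11; right, Ly6c1 counts as a percentage of Ly6c2 counts, between 0.0350% and 0.164%.

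Within groups, Ly6c2, I830127L07Rik and Gm5960 tended to be highest in the same replicate number. Replicate 4 was the highest of its group in 6 of 6 groups for Ly6c2 and I830127L07Rik, in 5 of 6 for Gm5960 and in 4 of 6 for Ly6e. It was highest in 2 of 6 groups for Ly6a and Ly6c1, in 1 of 6 for Ly6g and in 3 of 6 for Ly6i, genes with few counts. Replicate 1 was the lowest in 6 of 6 groups for I830127L07Rik and in 5 of 6 for Ly6c2.

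Across the 24 libraries, Pearson's r on the log2 scale was 0.974 between Ly6c2 and I830127L07Rik, as a description over libraries that share the 6 group means. Among all tested genes, each was the most like the other. Next came Ptgds (0.963) and Fam135b (0.963) for Ly6c2, and for I830127L07Rik the inflammasome sensor Nlrp3 (0.972) and the NADPH oxidase subunit Cybb (0.964). Ly6g was most like the macrophage perforin-type gene Mpeg1 (0.976), then Mgst1 (0.967) and fibronectin, Fn1 (0.965). Ly6a was most like the lectin receptor gene Klrb1f (0.959), B230303A05Rik (0.949) and S100a4 (0.947). Gm5960 was most like Gm20658 (0.982), AI839979 (0.980) and Slc44a4 (0.979), and Ly6c1 like Psd3 (0.896), Ypel2 (0.890) and Socs2 (0.886). Ly6e was most like the noncoding Gas5 (0.896), B3gnt5 (0.892) and Lgals3bp (0.873), and its r with the other members ran from -0.199 to 0.483.

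The start regions of Ly6c2 and I830127L07Rik are shown because these genes were the most alike in pattern and differed in the size of their folds. Both are from RefSeq on GRCm38.p6 and give the 250 bases before the transcription start on the minus strand, 5′ to 3′, with capitals for bases that differ or have no counterpart inside the aligned stretch. The first 5 bases of I830127L07Rik lie before the aligned stretch.
Ly6c2 (chr15:75111972-75112221, minus strand): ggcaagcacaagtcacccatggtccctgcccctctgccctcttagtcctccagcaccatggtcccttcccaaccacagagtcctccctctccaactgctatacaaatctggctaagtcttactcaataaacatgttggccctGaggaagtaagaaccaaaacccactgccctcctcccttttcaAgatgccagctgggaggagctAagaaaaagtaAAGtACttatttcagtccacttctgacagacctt
I830127L07Rik (chr15:75135129-75135378, minus strand): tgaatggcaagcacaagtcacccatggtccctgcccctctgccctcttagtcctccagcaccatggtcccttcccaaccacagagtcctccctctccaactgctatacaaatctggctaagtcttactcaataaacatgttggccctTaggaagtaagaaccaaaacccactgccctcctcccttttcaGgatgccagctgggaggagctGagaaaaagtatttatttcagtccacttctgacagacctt

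Over the whole RefSeq windows, which run on for 50 bases into the gene, 291 of 300 aligned columns were identical (97%). The substitutions were G143T, A185G, A206G and A278C, with the Ly6c2 base first and positions counted from 1 at the 5′ end of its 300-base window, and 5 columns were gaps. The other pairs among the 4 members with a promoter in the table, Ly6c1, Ly6c2, I830127L07Rik and Ly6g, were 71.1% to 77.6% identical. ETS proteins, to which ERG belongs, recognise a GGAA core. GGAA was found on either strand in 95.9% of the 27025 promoters of the table, with a median of 3 sites, and 4 times each in Ly6c1, Ly6c2 and I830127L07Rik and 5 times in Ly6g. The longer GAGGAAGT, which contains that core, was in 3.28% of promoters. It was found in Ly6c2 at -108 and at +27 from the start and in Ly6g at -31. G143T and A278C fall inside the Ly6c2 matches, so that I830127L07Rik had no match to these 8 letters. I830127L07Rik kept the GGAA core at both places, at -101 and +29, within TAGGAAGT and GCGGAAGT. The missing match is thus not a missing ETS core. Binding of ERG to any of these sites was not tested. A pair of GAAA spaced by 2 bases (3.49% of promoters) and the letters TTCNNNGAA (8.47%) and TTGCNNCAA (2.12%) were in none of the 4, and TATAAA (14.2%) was in Ly6c1 and Ly6g. These are matches of letters within short windows.

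Genes around the cluster were examined next, with edgeR's adjusted p over all tested genes, since they were not used in the choice. Of the 60 annotated genes from 500000 bases before the cluster to 500000 bases after it, 8 that are not members had enough counts. Inside the cluster lies the lincRNA Gm28068 (chr15:75007303-75024410, plus strand), between Ly6a and Ly6c1. It averaged 0.440, 0.445 and 0.417 CPM in BB, WT-ERG and P199L-ERG cells under DMSO, from 3 to 11 counts a library, and 0.804, 1.45 and 0.978 CPM with BRD3308, from 8 to 28 counts. Its log2 differences with the drug were 0.86, 1.64 and 1.21, but like Ly6g it reached the minimum for testing through the treated libraries, so no p-value is given. This is the direction of Ly6a, its neighbour.

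Them6, outside the cluster, rose with the drug by 0.44, 0.22 and 0.28 on the log2 scale in BB, WT-ERG and P199L-ERG cells (adjusted p = 5.49e-06, 0.00351 and 0.000312). It was also higher in WT-ERG (0.82, adjusted p = 7.14e-11) and P199L-ERG (0.76, 5.34e-10) than in BB cells under DMSO. The lincRNA Gm39556 was lower in both ERG lines under DMSO, by log2 differences of -0.97 (adjusted p = 6.33e-07) and -0.89 (2.99e-06). With BRD3308 it was also lower there, at -0.77 and -0.96 (edgeR adjusted p = 6.97e-06 and 4.52e-07). Like Ly6c2, it rose with the drug in BB (0.29, 0.0312) and WT-ERG cells (0.48, 0.00353), but it did not pass in P199L-ERG cells (0.22, 0.196). Both directions of the cluster were thus also present among its neighbours. Arc, an early-response gene, had 0 to 8 counts in the DMSO libraries and 5 to 18 with BRD3308, so it too reached the minimum through treated libraries and is given with no p-value, at log2 differences of 1.12, 2.47 and 0.92 in BB, WT-ERG and P199L-ERG cells. Jrk rose with BRD3308 in all 3 constructs, by 0.39 to 0.55. Zfp41 rose in P199L-ERG cells (0.31, adjusted p = 0.00635), and with BRD3308 Top1mt was lower in WT-ERG cells, relative to BB (-0.50, 0.0214). No neighbour passed the test between P199L-ERG and WT-ERG cells or for a difference of responses.

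Most other genes of the Ly6/uPAR family had too few counts to be tested. Of 39 other family genes listed, 34 were in the table and 4 had enough counts. Of these, Cd177, a neutrophil surface antigen, Plaur, the urokinase receptor, and Lypd6b rose with BRD3308 in each construct, and Ly6g5b did not pass. That is 3 of 4 each time, beside 24%, 24.7% and 24.4% of all tested genes called higher in BB, WT-ERG and P199L-ERG cells. This list and those of the next paragraphs were written with earlier results of these data known, so their counts are a description. Cd177 rose by 0.78, 0.90 and 1.08 on the log2 scale in BB, WT-ERG and P199L-ERG cells (adjusted p = 5.87e-12, 1.48e-13 and 4.45e-15), Plaur by 0.64, 0.72 and 0.65 (3.59e-10, 3.94e-11 and 3.13e-10), and Lypd6b by 1.93, 1.51 and 1.28 (1.93e-13, 3.19e-12 and 8.28e-11). In DMSO, Cd177 was higher in WT-ERG (0.58, adjusted p = 4.68e-09) and P199L-ERG (0.24, 0.00259) than in BB cells, and Plaur lower (-0.26, 0.00106 and -0.22, 0.0067). Opposite directions between family genes were therefore also measured outside chromosome 15's cluster. Cd177 was lower in P199L-ERG than in WT-ERG cells under DMSO (-0.34, adjusted p = 0.000208), the reverse of the Ly6c2 values. The cluster's neighbours of the same family, Ly6d, Ly6h, Ly6k, Lypd2 and Gpihbp1, had no counts in any library.

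Interferon-stimulated genes were listed because Ly6a, Ly6c and Ly6e belong to the interferon response in other cells. Of 32 listed, 24 were tested, and with BRD3308 18, 18 and 16 rose and 2 fell in BB, WT-ERG and P199L-ERG cells, with median log2 folds of 0.55, 0.45 and 0.46. Among all tested genes 24% to 24.7% were called higher. Because the list was written with earlier results of these data known, nothing is concluded from this difference. Ifit2, an interferon-induced RNA-binding protein, rose by 1.01, 1.53 and 1.35 (adjusted p = 1.98e-11, 2.56e-14 and 1.82e-13), and the chemokine gene Cxcl10 by 1.74, 1.89 and 1.63 (3.09e-11, 3.80e-11 and 9.38e-12). Eif2ak2, which encodes a kinase activated by double-stranded RNA, was among those that fell, at -0.24, -0.14 and -0.16.

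Between constructs, the share of the list that passed was near that of all genes. In WT-ERG against BB cells under DMSO, 3 of 24 were higher and 4 lower, beside 15.6% and 14.1% of tested genes, with Ifi47 at 0.53 (adjusted p = 1.07e-06) and Ifit2 at -0.83 (4.32e-08). In P199L-ERG cells 5 were higher and 3 lower, beside 15.3% and 12.9%, again with Ifi47 (0.54, 1.21e-06) and Ifit2 (-0.61, 7.66e-06). Between the ERG forms only Cxcl10 passed, higher in P199L-ERG cells by 1.0 in DMSO (adjusted p = 0.000287) and by 0.74 with BRD3308 (4.72e-05). Ifit2 had the direction of Ly6c2, and Ifi47 that of Ly6e.

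The enzymes that build and remodel the GPI anchor of Ly6 proteins were also listed. Of 28 tested, 9, 9 and 7 rose and 5, 5 and 6 fell with BRD3308 in BB, WT-ERG and P199L-ERG cells, with medians of 0.03, 0.04 and 0.02, where 24%, 24.7% and 24.4% of all tested genes were called higher. Pgap3, which remodels the anchor's lipid, rose by 0.75, 0.56 and 0.71 (adjusted p = 6.46e-08, 7.64e-06 and 2.19e-07). Piga, the catalytic subunit of the first step of anchor synthesis, was higher in WT-ERG (0.84, adjusted p = 9.52e-14) and P199L-ERG cells (0.66, 2.53e-11) than in BB cells under DMSO and fell with the drug, at -0.19, -0.41 and -0.27. Its mean was 95.5, 171 and 151 CPM in DMSO-treated BB, WT-ERG and P199L-ERG cells.

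Other surface antigens of progenitors were tested beside Sca-1. Of 9 tested, 7 rose and 2 fell with BRD3308 in BB cells, and 6 rose and 1 fell in each ERG line. Among all 12963 tested genes, 24%, 24.7% and 24.4% were called higher in BB, WT-ERG and P199L-ERG cells, and 2849, 3010 and 3120 genes lower. Nothing is concluded from these shares, as earlier results were known when the list was written. Thy1, like Ly6a a GPI-anchored antigen, rose by 3.86, 2.53 and 2.76 (adjusted p = 4.99e-25, 1.04e-22 and 2.70e-23), and Cd34 by 1.47, 1.29 and 1.33. Itga2b, the platelet integrin chain CD41, fell, at -0.80, -1.22 and -1.02. Thy1 was also higher in both ERG lines than in BB cells under DMSO (2.23, adjusted p = 1.80e-18, and 1.70, 2.37e-15), as were Cd48 and Itga2b, whereas Prom1, which encodes CD133, was lower (-1.38, 1.42e-12, and -1.54, 3.68e-13). Thy1 averaged 8.90, 41.8 and 28.9 CPM in DMSO and 129, 241 and 197 CPM with BRD3308 in BB, WT-ERG and P199L-ERG cells. Ly6a, at no more than 6.14 CPM in any library, had the direction of Thy1 under BRD3308.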

How the data were processed

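RNA from 24 cultures of ER-Hoxb8 cells was sequenced. Per the methods and the labels, the authors lysed cells in TRIzol, discarded reads under 30 bp and aligned the rest with STAR to GRCm38. Cutadapt, HTSeq and DESeq2 are also named in the submitters' processing notes, without versions. The deposited table holds raw counts per gene, not normalized. For the annotation, the strand setting and the handling of reads that match several genes, nothing is given in the sources used here. The labels give 36 hours and 5 µM. Of the 53801 features, 53706 matched GENCODE M21, and no column was left out.

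Counts were tested with edgeR 4.0.16 in R 4.3.3, with limma 3.58.1 underlying it: filterByExpr on the 6 groups (12963 genes kept), TMM scaling, and the quasi-likelihood test on 1 fit of all 24 libraries, with Benjamini-Hochberg adjustment over all kept genes and a threshold of 0.05. CPM use TMM-scaled library sizes. RPKM divide them by exon length. SE are those of the fitted log2 folds. P-values measure the spread between these libraries. Totals per library were 12510036 to 16280939, which limits members under about 10 counts to the intervals given. No libraries were duplicates (chi-square per degree of freedom 1.52 to 23.8 over 36 pairs within groups). The procedure was tested on simulated data.

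The members and the gene lists were chosen with earlier results of these data known. Genes are named by rule: all 8 members, the tested genes within 500000 bases of the cluster, of each other list and comparison up to 4 genes of smallest p and those that passed against the list's majority, and the 3 genes most like each member. Text names are a selection from these. One result is not reported here. Alternatives were limma-voom, DESeq2 1.42.0, other scalings, no filter or a filter of over 30 reads in every library, a fit of only the groups compared, a replicate block, each library left out in turn, and both of the DMSO-treated ERG libraries of replicate 4 left out, the last chosen after seeing the data.

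Replicate numbers come from the labels, which describe independent experiments. All 24 libraries deviated most like a library of their own number. The correlation of same-number deviations was over 0.1 for 53 of 60 pairs of libraries (median 0.167, range 0.0856 to 0.312). Every pair was over 0.1 in each of the 6 comparisons between constructs, so there the numbers pair the libraries. In the 3 drug comparisons the lowest values were 0.0856, 0.0996 and 0.0957, under the 0.1 taken as the limit. This does not show that the libraries are unpaired there. The fit reported holds no term for replicate number, and the replicate block is given as an alternative.

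Sequences were read from GRCm38, with promoters from RefSeq GRCm38.p6, using Python 3.11.15 and biopython 1.88, and figures were drawn with matplotlib 3.10.9.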

Additional observations from a re-analysis of the deposited data

Results flagged for a closer look

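Of 72 sets of 4 libraries examined, 7 had a library far from the other 3, and about 1 in 20 would by chance. Ly6a was highest in replicate 3 of DMSO-treated BB cells (0.844 CPM) and lowest in replicate 3 of BRD3308-treated BB cells (1.60 CPM). Ly6e was highest in replicate 4 of DMSO-treated WT-ERG cells (1043 CPM), as was Gm5960 (5.18 CPM), and Ly6g was lowest in replicate 3 of BRD3308-treated WT-ERG cells (1.74 CPM). The counts of Ly6c2 per count of I830127L07Rik were highest in replicate 1 of BRD3308-treated BB cells (2.07) and in replicate 1 of DMSO-treated WT-ERG cells (4.11).

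The response to BRD3308 differed from that of BB cells by an interaction term for the following genes, those that are members being a description. The difference of log2 folds in WT-ERG cells was 0.74 for Ly6c2 and 1.09 for I830127L07Rik, and in P199L-ERG cells -0.25 for Ly6e and 0.54 for I830127L07Rik. Among the genes of the other lists, it was 0.53 for Ifit2 in WT-ERG cells (edgeR adjusted p = 0.0135). For Cd48 it was -0.60 in WT-ERG (0.000887) and -0.49 in P199L-ERG cells (0.0115). For Thy1 it was -1.33 (7.64e-10) and -1.09 (7.98e-08), so that its rise with the drug was largest in BB cells. For Prom1 it was 0.54 (0.0121) and 0.68 (0.00193).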

How the results depend on the processing

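Of 1443 recomputed fold changes of the members, 32 moved by more than the SE of the reported fold. No called fold changed sign. Folds that were not called changed sign in 9 cases, 5 for Ly6a in P199L-ERG against WT-ERG cells under DMSO, 2 for Ly6e with BRD3308 in P199L-ERG cells, and 1 each for the responses of Ly6c1 (P199L-ERG minus BB) and Ly6e (P199L-ERG minus WT-ERG). Measured instead against the largest SD of log2 CPM within any group compared, 1 moved further, Ly6g with BRD3308 in WT-ERG cells, at 3.24 with limma-voom. With over 30 reads required in every library, which leaves 4 members tested, 4, 3 and 3 members were called with BRD3308 in BB, WT-ERG and P199L-ERG cells, and 4 in WT-ERG against BB cells under BRD3308. A fit of only the groups compared called 2237 genes in P199L-ERG against BB cells under DMSO (3652 before), 229 in P199L-ERG against WT-ERG cells under DMSO (606), 2 members in that comparison under BRD3308, and 1 gene for their difference of responses (6). With no filter, 2 members were called in P199L-ERG against WT-ERG cells under BRD3308, 300 genes for the response of P199L-ERG minus BB (136), and 21 genes and 2 members for P199L-ERG minus WT-ERG. DESeq2 gave 21 genes and 2 members there.

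With the replicate block, P199L-ERG against WT-ERG gave 1026 genes under DMSO and 732 genes and 3 members under BRD3308. For the responses, not every pair of same-number libraries had a correlation over 0.1. There the block gave 421 genes and 4 members for WT-ERG minus BB (224 and 2). It gave 467 genes for P199L-ERG minus BB, and 28 genes and 2 members for P199L-ERG minus WT-ERG. It moved no other count by over 1.5 times. Without replicate 4 of both DMSO-treated ERG lines, chosen after seeing the data, the responses gave 350 genes and 4 members for WT-ERG minus BB and 13 genes and 1 member for P199L-ERG minus WT-ERG. Leaving out 1 library at a time gave 79 to 176 genes and 0 to 3 members for P199L-ERG minus BB, 0 to 8 genes and 0 to 1 members for P199L-ERG minus WT-ERG, 164 to 211 genes and 2 to 3 members for WT-ERG minus BB, and 0 to 1 members for P199L-ERG against WT-ERG under BRD3308. The cause of these changes was not tested.

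Depth limits Ly6g, Ly6c1, Ly6i and, in DMSO, Ly6a, whose counts were below 20 in every DMSO library. Shared sequence limits Ly6c1. Gm5960 and Ly6a also share windows with I830127L07Rik, which had far more counts, and the part of shared reads in their values was not tested.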
